A study of Homo sapiens with 9 samples.

Results

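The 8 genes of de novo fatty acid synthesis described here were SLC25A1, ACLY, ACSS2, ACACA, ACACB, FASN, SREBF1 and MLXIPL, found by gene name among the 58735 genes counted in each library. All 8 were present once and all 8 passed the filter on low counts, as did 16188 of all genes. RNA was sequenced from MDA-MB-231, a triple-negative breast cancer cell line with mesenchymal features, in 3 groups of 3 libraries each. Vehicle cells received DMSO, erastin-R cells had survived treatment with increasing erastin, an inhibitor of the cystine importer system xc-, and RSL3-R cells had survived increasing RSL3, an inhibitor of the lipid peroxidase GPX4. No genetic change is named for any group. Doses and times of the sequenced cells are not given in the labels, and nothing says whether the 3 libraries of a group came from separate cultures, so the p-values measure the spread between these libraries, which may be technical.

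De novo fatty acid synthesis builds palmitate from acetyl-CoA in the cytosol. SLC25A1 exports citrate from mitochondria and ACLY splits it into acetyl-CoA, ACSS2 makes acetyl-CoA from acetate, the acetyl-CoA carboxylases ACACA and ACACB turn acetyl-CoA into malonyl-CoA, and FASN joins these units into palmitate. The genes are switched on by the transcription factors SREBP1 (SREBF1), which is released from the endoplasmic reticulum by proteolysis, and ChREBP (MLXIPL), which responds to glucose; many breast cancers make much of their own fatty acid. Palmitate and the monounsaturated fatty acids made from it are less easily peroxidised than the polyunsaturated fatty acids attacked in ferroptosis.

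The libraries held 15405102 to 17273464 counts. Erastin-R replicate 1 stood apart from replicates 2 and 3 on the third principal component, at -35.7 against 14.4 and 12.97, and 7.95% of its counts were mitochondrial against 5.55% and 5.84%. The mitochondrial share was 7.97% to 8.93% in vehicle and 9.52% to 10.2% in RSL3-R cells, and its part in the group differences was not tested. The 8 genes together took 0.157% of its counts against 0.197% and 0.192%. Calls on the 8 genes and list counts that change without this library are given both ways. This library enters the comparison of RSL3-R with vehicle cells only through the shared low-count filter, scaling, estimate of spread and adjustment. The 5 genes listed as present in a mesenchymal triple-negative line were VIM, CD44, AXL, CAV1 and EGFR. They were abundant, with a summed level of 3613 to 3718 CPM (counts scaled to library size by TMM) in vehicle, 3617 to 3812 in erastin-R and 3622 to 3711 in RSL3-R cells. Behind the similar sums, CAV1 fell by 1.14 on the log2 scale in erastin-R and by 0.86 in RSL3-R cells and CD44 fell by 0.15 and by 0.43, while AXL rose by 0.58 and 0.40 and EGFR by 0.26 and 0.78. VIM did not pass the test. The 5 luminal markers summed to at most 11.4 CPM, with PGR at 0 to 2 counts and GATA3 at 54 to 117. CDH1, the epithelial cadherin, was at 6 to 59 counts and rose by 1.58 in RSL3-R cells (adjusted p = 0.00130). The 5 adipocyte markers summed to 0.617 to 1.07 CPM in vehicle, 1.19 to 2.80 in erastin-R and 1.93 to 2.71 in RSL3-R cells, nearly all of it PLIN1, with ADIPOQ at 0 or 1 count. The 3 leukocyte markers summed to 0.679 to 0.864 CPM in vehicle, 0.182 to 0.655 in erastin-R and 1.46 to 1.80 in RSL3-R cells. Of these, PTPRC was at 4 to 11 counts in vehicle, 3 to 11 in erastin-R and 19 to 24 in RSL3-R cells. CD3E was at 0 to 4 counts.

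In GRCh38 the genes lie on 5 chromosomes. SLC25A1 (ENSG00000100075) spans 19175575 to 19178830 of chromosome 22, minus strand. Chromosome 17 holds 4 of them, all on the minus strand: ACLY (ENSG00000131473) at 41866908 to 41930542, ACACA (ENSG00000278540) at 37084988 to 37406818, FASN (ENSG00000169710) at 82078333 to 82098332 and SREBF1 (ENSG00000072310) at 17810399 to 17837002. ACSS2 (ENSG00000131069) spans 34872146 to 34927962 of chromosome 20 and ACACB (ENSG00000076555) spans 109116595 to 109268226 of chromosome 12, both on the plus strand. MLXIPL (ENSG00000009950) spans 73593194 to 73624543 of chromosome 7, minus strand. Of the exon bases of SREBF1, 6.92% also belong to RAI1 on the opposite strand, which had 1077 to 1570 counts, and 2.99% of those of ACLY belong to an antisense gene with 0 counts. Whether the counting used strand is not given in the sources used here. Sequence of 50 bases shared with other genes made up 1.38% of MLXIPL, 0.274% of ACACB and 0.142% of ACACA, and none was found for the other 5. The counts are per gene, so the isoforms of SREBF1 and ACACA cannot be told apart. SREBF1 also hosts MIR33B in an intron, for which the libraries held 0 to 2 counts. The study's methods describe oligo(dT) selection of RNA, so these counts do not measure the level of the mature microRNA.

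ACSS2 and MLXIPL were the 2 members that differed most between RSL3-R and erastin-R cells, both higher in RSL3-R, and the sequence before a RefSeq start of each (GRCh38.p14) is shown, without bases that GENCODE places in their exons. The stretch of ACSS2 is chr20:34874739-34874941 on the plus strand and that of MLXIPL is chr7:73624544-73624772 on the minus strand. Capitals mark GGGCGG (the GC box) and CCAAT, on either strand. ACSS2 has another RefSeq start, not shown. The 250 bases before it (chr20:34876362-34876611) held 3 GC boxes and 0 CCAAT. Both stretches of ACSS2 lie within the gene span given above.
ACSS2: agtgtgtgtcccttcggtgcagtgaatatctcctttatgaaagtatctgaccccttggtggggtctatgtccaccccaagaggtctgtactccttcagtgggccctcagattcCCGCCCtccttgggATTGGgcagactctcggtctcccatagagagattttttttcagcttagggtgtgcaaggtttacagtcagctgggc
MLXIPL: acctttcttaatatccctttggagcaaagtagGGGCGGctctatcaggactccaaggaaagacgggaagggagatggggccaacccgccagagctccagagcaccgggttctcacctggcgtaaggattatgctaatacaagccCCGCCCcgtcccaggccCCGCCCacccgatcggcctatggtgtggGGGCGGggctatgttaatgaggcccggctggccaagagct
RefSeq starts were matched for 7 of the 8 genes, 12 starts in all. None was matched for FASN, whose promoter was therefore not searched. In the 250 bases before these starts, GGGCGG was found at 10 of 12 and CCAAT at 7 of 12, against 42.6% and 32.0% of the 35116 promoters of the same length. The 12 stretches are not independent, as the 2 of ACLY overlap and share their matches in part. The E-box CACGTG, a core letter pattern of ChREBP sites, was found at 0 of 12 (6.34% of all), the sterol element TCACNCCAC at 0 of 12 (0.883%) and TGATGNAA, a pattern bound by ATF4, at 0 of 12 (3.14%). All patterns were searched on both strands, and the matches marked above do not overlap. The counts do not show which start was used.

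Per length, the cells held most RNA of ACLY and FASN and least of ACACB. In vehicle cells the RPKM, reads scaled by exon length and TMM library size, was 106 ± 1.31 for ACLY, 88.4 ± 2.80 for FASN, 48.9 ± 4.49 for SLC25A1, 22.7 ± 0.786 for ACSS2, 20.5 ± 0.381 for SREBF1, 12.4 ± 0.317 for ACACA, 7.39 ± 0.434 for MLXIPL and 0.821 ± 0.0279 for ACACB (mean ± SD, n = 3), with no overlap between neighbours in this order. In erastin-R cells FASN (72.5 to 102) and ACLY (81.7 to 82.8) overlapped, as did ACSS2 (19.2 to 21.6) and SREBF1 (15.2 to 23.0). In RSL3-R cells FASN was highest at 114 ± 4.53 and ACSS2, at 44.3 ± 1.02, had moved above SLC25A1, at 38.0 ± 2.71, while ACACA (13.1 to 13.5) and MLXIPL (12.02 to 13.3) overlapped.

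**Figure D1:**
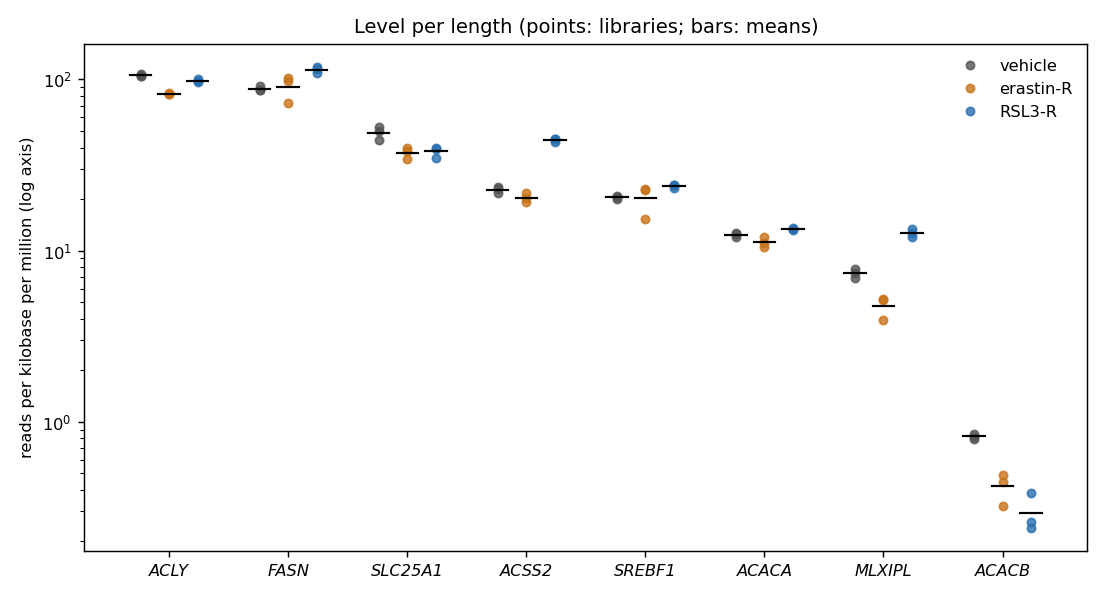
Level per length of the 8 genes (RPKM, log axis) in each library, coloured by group, with bars at the group means. The genes are ordered by their vehicle level from ACLY at 106 to ACACB at 0.821, and ACSS2 and MLXIPL are highest in RSL3-R cells.

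The survivors of erastin had less RNA of SLC25A1, ACLY, ACACB and MLXIPL than vehicle cells. ACSS2 was lower as well, by a call that passed by little and was lost in 12 of 16 alternative settings. In RSL3-R cells ACSS2, FASN and MLXIPL rose while SLC25A1 and ACACB fell. Of the 8 genes, 0 passed the test as higher and 5 as lower in erastin-R cells (adjusted p under 0.05, edgeR), where 27.1% of all genes tested were higher and 26.8% lower, and the members' median log2 fold change was -0.26 against -0.0042 for all genes. Against vehicle, 3 were higher and 2 lower in RSL3-R cells (background 23.8% and 24.9%), with medians of 0.16 and 0.0052. Between the survivors, 5 were higher and 1 lower in RSL3-R than in erastin-R cells (background 22.3% and 26.9%), with medians of 0.26 and -0.024. The first 2 comparisons share the vehicle libraries. Groups without overlap were common among all genes tested. For 0 members all erastin-R libraries lay above vehicle and for 6 below, against 28.7% and 29.1% of all genes. In RSL3-R cells 5 members lay above and 3 below vehicle (30.4% and 31.4% of all genes). Between the survivors 6 lay above and 0 below in RSL3-R cells (25.6% and 29.5%).

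At a log2 fold change of at least 1 as well, 0 members were called in erastin-R cells (6.70% of all genes higher, 6.66% lower). In RSL3-R cells 0 were called higher and 1 lower, which was ACACB (6.02% and 4.08%). Between the survivors 2 were called higher in RSL3-R cells, ACSS2 and MLXIPL, and 0 lower (6.86% and 3.48%). Without erastin-R replicate 1, the members past adjusted p were 2 higher and 5 lower in erastin-R cells (29.6% and 30.3% of the genes then tested), 5 higher and 3 lower in RSL3-R cells (27.4% and 29.2%), and 5 higher and 0 lower between the survivors (27.1% and 30.0%). The 5 lower in erastin-R cells were then not the same 5. ACACA was among them (adjusted p = 5.62e-04, edgeR) and ACSS2 was not (adjusted p = 0.0549). In bulk RNA a change in every cell and a change in the share of cells that survived cannot be told apart.

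**Figure D2:**
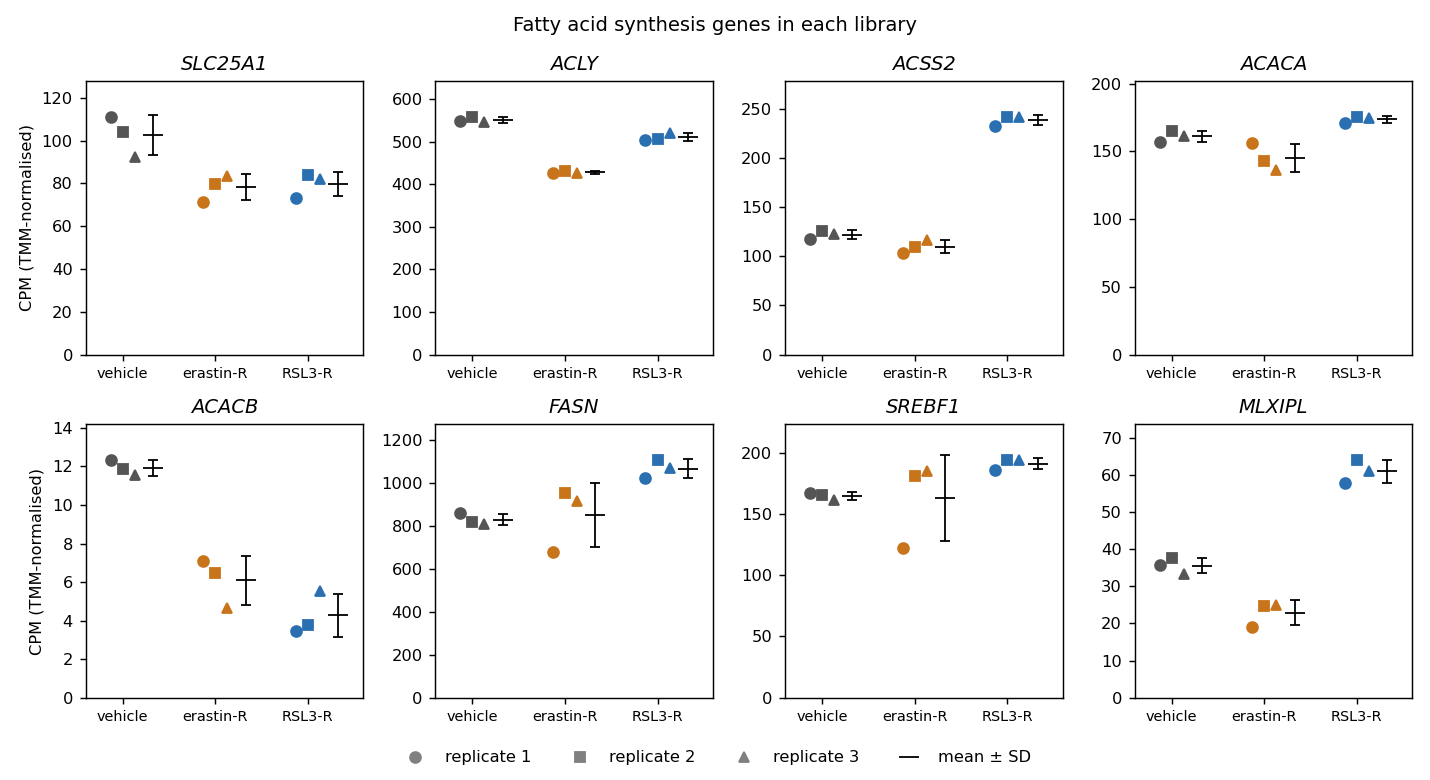
TMM-normalised CPM of each gene in each of the 9 libraries, with the mean ± SD of each group (n = 3) and a separate vertical axis from 0 for each gene. ACSS2 lies at 232 to 242 in RSL3-R cells and at most at 126 elsewhere, and erastin-R replicate 1 lies below every other library for FASN and SREBF1.

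**Figure D3:**
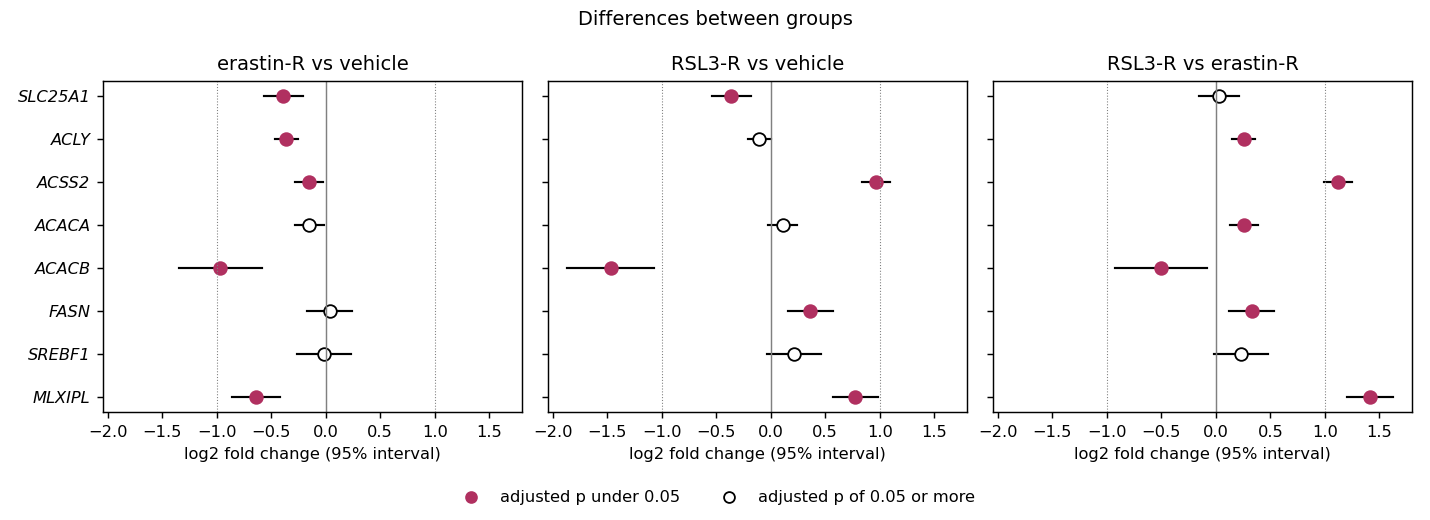
Log2 fold change of each gene in the 3 comparisons, with 95% intervals, filled where adjusted p was under 0.05; dotted lines mark a log2 fold change of 1 in either direction. MLXIPL has opposite signs in erastin-R (-0.64) and RSL3-R cells (0.78), and ACACB is below 0 in all 3 panels.

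SLC25A1, the mitochondrial citrate carrier, was at 111, 104 and 92.5 CPM in vehicle replicates 1 to 3, at 71.5, 79.9 and 83.3 in erastin-R and at 73.2, 83.8 and 82.2 in RSL3-R cells. Every survivor library lay below every vehicle library. It fell by 23.7% in erastin-R (log2 fold change -0.39 ± 0.08 SE, adjusted p = 0.00134, edgeR) and by 22.3% in RSL3-R cells (-0.36 ± 0.08, adjusted p = 0.00265). The survivors overlapped, with a log2 difference of 0.03 and a 95% interval of -0.15 to 0.21.

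ACLY, the enzyme that makes cytosolic acetyl-CoA from citrate, was at 548, 559 and 546 CPM in vehicle, at 427, 432 and 426 in erastin-R and at 505, 508 and 522 in RSL3-R cells. The 3 groups did not overlap, with the RSL3-R libraries between the other two groups. ACLY fell by 22.3% in erastin-R cells (log2 fold change -0.36 ± 0.05, adjusted p = 3.03e-05, edgeR), and it was 1.19-fold higher in RSL3-R than in erastin-R cells (adjusted p = 7.02e-04). Its RSL3-R level, at a log2 difference of -0.11 ± 0.05 from vehicle (95% interval -0.21 to -0.0020), did not pass the test (adjusted p = 0.0857). This difference passed without erastin-R replicate 1 (-0.11 ± 0.04, adjusted p = 0.00960) and with only the 2 groups compared (-0.10 ± 0.04, adjusted p = 0.0200).

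ACSS2, which makes acetyl-CoA from acetate in cytosol and nucleus, was at 118, 126 and 123 CPM in vehicle, at 103, 109 and 116 in erastin-R and at 232, 242 and 242 in RSL3-R cells. All 3 RSL3-R libraries were far above the other 6. The gene was 1.96-fold higher in RSL3-R than in vehicle cells (log2 fold change 0.97 ± 0.06, adjusted p = 2.18e-08, edgeR) and 2.18-fold higher than in erastin-R cells (1.12 ± 0.06, adjusted p = 1.05e-08). Its fall of 10.2% in erastin-R cells (-0.15 ± 0.06, adjusted p = 0.0449) passed by little and was lost in 12 of 16 alternative settings, among them without erastin-R replicate 1 (-0.12, adjusted p = 0.0549), while the direction held in all 16.

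The 2 sources of acetyl-CoA were compared within each library. Per length, ACLY was 4.81, 4.58 and 4.59 times ACSS2 in the vehicle libraries, 4.26, 4.09 and 3.78 times in erastin-R and 2.24, 2.17 and 2.23 times in RSL3-R cells. The ratio was lower in every RSL3-R library than in any other.

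ACACA, the carboxylase of the cytosol and the rate-setting step of synthesis, was at 157, 165 and 162 CPM in vehicle, at 156, 143 and 136 in erastin-R and at 171, 176 and 175 in RSL3-R cells. The RSL3-R libraries were highest and the erastin-R libraries lowest, without overlap, by small distances. It was 1.196-fold higher in RSL3-R than in erastin-R cells (log2 fold change 0.26 ± 0.06, adjusted p = 0.00325, edgeR). Against vehicle neither difference passed (erastin-R -0.15, adjusted p = 0.0534; RSL3-R 0.11, adjusted p = 0.161). Both passed without erastin-R replicate 1, at -0.21 (adjusted p = 5.62e-04) and 0.11 (adjusted p = 0.0373). For RSL3-R cells the size of the difference stayed at 0.11, while its SE went from 0.06 to 0.04. It also passed with only the 2 groups compared (0.11 ± 0.04, adjusted p = 0.0259).

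ACACB, the carboxylase at the outer mitochondrial membrane whose malonyl-CoA restrains fatty acid import for oxidation, was the rarest of the 8, with 54 to 207 counts a library. It was at 12.3, 11.9 and 11.5 CPM in vehicle, at 7.09, 6.49 and 4.68 in erastin-R and at 3.48, 3.79 and 5.55 in RSL3-R cells. All 6 survivor libraries were below the vehicle libraries, and the survivors overlapped. ACACB fell by 48.9% in erastin-R cells (log2 fold change -0.97 ± 0.18, adjusted p = 4.04e-04, edgeR) and by 63.9% in RSL3-R cells (-1.47 ± 0.19, adjusted p = 1.81e-05). The difference between the survivors (-0.50 ± 0.20, adjusted p = 0.0462) was lost in 9 of 15 settings, and without erastin-R replicate 1 it was -0.38 (adjusted p = 0.0970).

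Of the carboxylase RNA counted per length, ACACB held 6.60%, 6.06% and 6.01% in the vehicle libraries, 3.90%, 3.91% and 2.99% in erastin-R and 1.80%, 1.90% and 2.77% in RSL3-R cells. ACACA made up the rest, so the RNA mix moved towards ACACA in all 6 survivor libraries. ACACA itself did not pass against vehicle with all libraries, and the RNA does not give the amounts of the enzymes.

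FASN, the multidomain synthase that makes palmitate, was at 858, 817 and 809 CPM in vehicle, at 679, 954 and 913 in erastin-R and at 1021, 1106 and 1070 in RSL3-R cells. All RSL3-R libraries were highest, whereas the erastin-R group was split, with replicate 1 below and replicates 2 and 3 above the vehicle libraries. FASN was 1.29-fold higher in RSL3-R than in vehicle cells (log2 fold change 0.36 ± 0.10, adjusted p = 0.00676, edgeR) and 1.26-fold higher than in erastin-R cells (0.33 ± 0.10, adjusted p = 0.0123; 0.19 ± 0.04 and adjusted p = 3.29e-04 without erastin-R replicate 1). Against vehicle the erastin-R difference was 0.04 with a 95% interval of -0.17 to 0.24 (adjusted p = 0.779). Without erastin-R replicate 1 it was 0.17 ± 0.04 (adjusted p = 7.94e-04), higher than vehicle, and without replicate 2 or 3 it was -0.057 or -0.019. Relative to ACLY per length, FASN was at 0.872, 0.814 and 0.825 in vehicle, at 0.886, 1.23 and 1.19 in erastin-R and at 1.13, 1.21 and 1.14 in RSL3-R cells, above every vehicle library in all 6 survivor libraries.

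SREBF1, the gene of SREBP1, was at 167, 165 and 161 CPM in vehicle, at 122, 181 and 185 in erastin-R and at 185, 194 and 194 in RSL3-R cells. It followed the pattern of FASN, with erastin-R replicate 1 far below its group and the RSL3-R libraries highest. Neither difference from vehicle passed (erastin-R -0.02, 95% interval -0.26 to 0.23, adjusted p = 0.914; RSL3-R 0.22, interval -0.03 to 0.46, adjusted p = 0.137, edgeR), nor did that between the survivors (0.23, adjusted p = 0.110). The difference between the survivors was 0.060 (adjusted p = 0.278) without erastin-R replicate 1 and 0.33 (adjusted p = 0.0389) without erastin-R replicate 3. Without erastin-R replicate 1, SREBF1 was higher than vehicle in erastin-R cells (0.15 ± 0.05, adjusted p = 0.00637) and in RSL3-R cells (0.21 ± 0.04, adjusted p = 8.11e-05). With only the 2 groups compared the RSL3-R difference was 0.22 ± 0.04 (adjusted p = 1.14e-04). With erastin-R replicate 1 in the fit it was of the same size but had a larger SE (0.22 ± 0.11). The mitochondrial share of counts in that library is given above, and its part in these values was not tested.

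**Figure D4:**
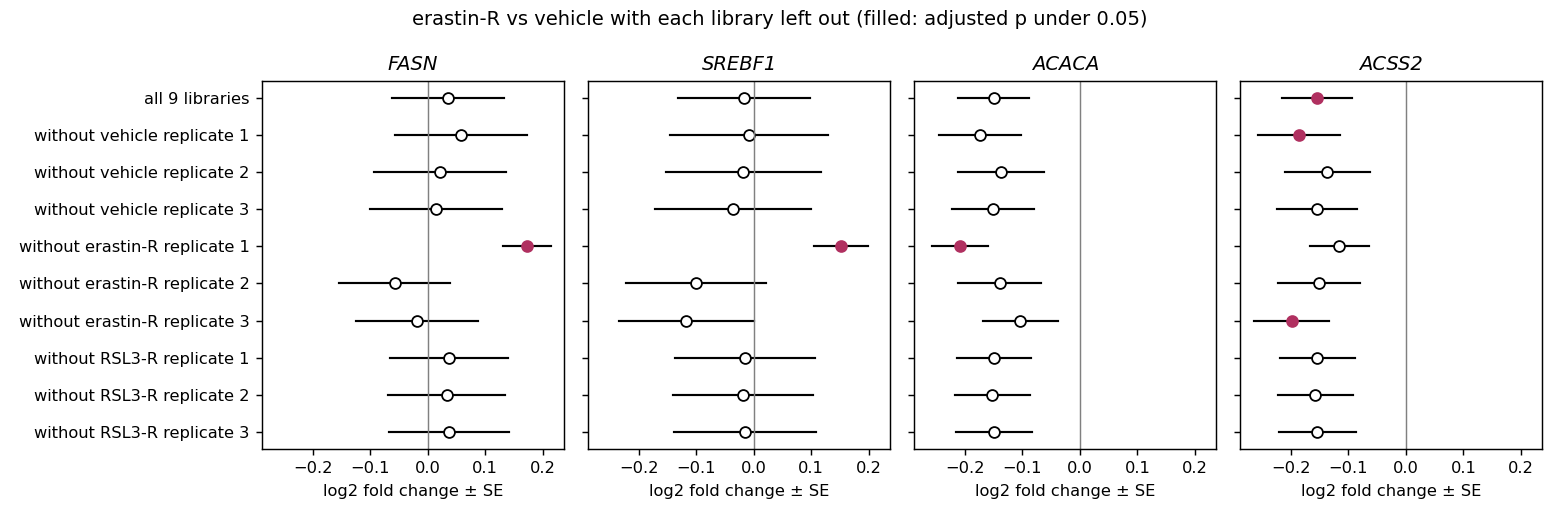
Log2 fold change ± SE of FASN, SREBF1, ACACA and ACSS2 between erastin-R and vehicle cells with all 9 libraries and with each library left out, filled where adjusted p was under 0.05. Leaving out erastin-R replicate 1 moves FASN to 0.17 and SREBF1 to 0.15, ACACA is past the threshold only there, and ACSS2 is below 0 in every fit.

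MLXIPL, the gene of ChREBP, was at 35.7, 37.6 and 33.4 CPM in vehicle, at 19.0, 24.6 and 24.98 in erastin-R and at 57.9, 64.0 and 61.0 in RSL3-R cells. The 3 groups did not overlap, with vehicle in the middle. It fell by 35.8% in erastin-R cells (log2 fold change -0.64 ± 0.10, adjusted p = 1.20e-04, edgeR) and was 1.71-fold higher in RSL3-R cells (0.78 ± 0.10, adjusted p = 1.58e-05). Between the survivors it was 2.67-fold higher in RSL3-R cells (1.42 ± 0.10, adjusted p = 1.21e-07), the widest of the 8 differences there, and every call on this gene held in all 16 alternative settings.

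The 2 transcription factor genes differed in proportion from group to group. Per length, SREBF1 was 2.81, 2.63 and 2.89 times MLXIPL in the vehicle libraries, 3.86, 4.41 and 4.44 times in erastin-R and 1.92, 1.82 and 1.90 times in RSL3-R cells, without overlap between groups. Against its sterol-side relative SREBF2, SREBF1 stood at 0.525, 0.545 and 0.542 in vehicle, at 0.405, 0.511 and 0.503 in erastin-R and at 0.485, 0.494 and 0.491 in RSL3-R cells, below vehicle in all 6 survivor libraries.

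Around these genes, 76 others of the pathway were listed by role, of which 73 could be tested, against the same shares and medians of all genes as above. The regulators of the transcription factors moved both ways: of 19, 6 were higher and 4 lower in erastin-R cells and 7 higher and 5 lower in RSL3-R cells. The counts without erastin-R replicate 1 were 9 higher and 4 lower, and 8 higher and 6 lower. SREBF2, which drives sterol genes, was 0.16 higher on the log2 scale in erastin-R cells (adjusted p = 0.0742) and rose by 0.35 in RSL3-R cells (adjusted p = 9.57e-04, edgeR). SCAP, the escort of SREBP precursors, rose by 0.23 in erastin-R cells (adjusted p = 0.0273) and was at -0.14 in RSL3-R cells (adjusted p = 0.168, and 0.0122 without erastin-R replicate 1). INSIG1, which retains SCAP in the endoplasmic reticulum and is itself an SREBP target, was at 0.10 in erastin-R cells (adjusted p = 0.228) and rose by 0.39 in RSL3-R cells (adjusted p = 4.59e-04). Without erastin-R replicate 1 both SREBF2 (0.24) and INSIG1 (0.18) passed as higher in erastin-R cells. MLX, the binding partner of ChREBP, rose by 0.30 in erastin-R cells (adjusted p = 0.00116), where MLXIPL fell, and MLXIP, its paralogue MondoA, rose by 0.23 (adjusted p = 0.0208); neither passed in RSL3-R cells (0.11 and -0.06). The erastin-R calls of SCAP and MLXIP were lost without vehicle replicate 2 or 3 or erastin-R replicate 2 or 3 (adjusted p = 0.0739, 0.0989, 0.132 and 0.0905 for SCAP and 0.0703, 0.0878, 0.0876 and 0.0826 for MLXIP).

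Of 3 listed targets of MondoA and ChREBP, PKLR was too low to test and the other 2 rose in both survivors. TXNIP, which limits glucose uptake, was at 302 to 306 CPM in vehicle and rose by 1.53 in erastin-R (adjusted p = 2.58e-10) and by 1.93 in RSL3-R cells (adjusted p = 1.78e-11, edgeR) on the log2 scale. ARRDC4, an arrestin of the same family, rose by 1.01 (adjusted p = 6.32e-04) and 1.95 (adjusted p = 1.44e-06). MLXIPL RNA was below vehicle in erastin-R cells (-0.64) and above it in RSL3-R cells (0.78). The part of either factor in the rise of these targets was not tested.

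Genes that act on the enzymes were mostly higher: of 12 tested, 9 were higher and 0 lower in erastin-R cells (median 0.51) and 8 higher and 1 lower in RSL3-R cells (median 0.27). With erastin-R replicate 1 left out they were 9 higher and 2 lower (median 0.65), and 9 higher and 1 lower (median 0.27). TRIB3, a pseudokinase that directs ACACA to degradation and is also a known stress-response gene, was at 28.3 to 32.9 CPM in vehicle, 87.6 to 116 in erastin-R and 220 to 229 in RSL3-R cells. It rose by 1.76 (adjusted p = 1.08e-08) and 2.84 (adjusted p = 1.28e-10, edgeR) on the log2 scale, the widest change among the listed genes in both survivors. MID1IP1, which promotes assembly of carboxylase into its active polymer, rose by 1.09 in erastin-R (adjusted p = 1.52e-05) and 0.91 in RSL3-R cells (adjusted p = 9.33e-05). PRKAB2, a subunit of AMPK, the kinase that inactivates both carboxylases, rose by 1.14 (adjusted p = 6.10e-08) and 0.30 (adjusted p = 0.00726). The other listed AMPK subunits changed less. In erastin-R cells PRKAA2 (0.24), PRKAB1 (0.36) and PRKAG2 (0.67) were higher, while PRKAA1 (-0.18) and PRKAG1 (-0.10) did not pass. In RSL3-R cells PRKAA1 (0.25) and PRKAG2 (0.19) were higher, while PRKAA2 (0.06), PRKAB1 (0.05) and PRKAG1 (0.21) did not pass. Of the 8 further genes of citrate and NADPH supply, 3 were higher and 3 lower in erastin-R cells and 3 higher and 2 lower in RSL3-R cells, or 4 higher and 3 lower and 3 of each without erastin-R replicate 1.

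Genes that use fatty acids were mostly lower in erastin-R cells. Of 14 genes that desaturate, extend, activate or esterify fatty acids, 1 was higher and 9 lower in erastin-R cells (median -0.43), 3 higher and 3 lower in RSL3-R cells (median -0.07), and 8 higher and 3 lower in RSL3-R than in erastin-R cells (median 0.39). Leaving out erastin-R replicate 1 gave 3 higher and 9 lower, 3 higher and 5 lower, and 9 higher and 3 lower. SCD, which makes monounsaturated from saturated fatty acids, fell by 0.68 on the log2 scale in erastin-R (adjusted p = 9.67e-08) and rose by 0.37 in RSL3-R cells (adjusted p = 2.85e-05, edgeR). FADS2, the desaturase that starts polyunsaturated synthesis, fell by 1.17 (adjusted p = 2.59e-08) and by 0.31 (adjusted p = 0.00279). LPIN1, a phosphatidate phosphatase of glycerolipid synthesis, fell by 0.85 in erastin-R (adjusted p = 1.87e-07) and rose by 0.27 in RSL3-R cells (adjusted p = 0.00371). FASN itself was at 0.04 in the erastin-R comparison with all libraries and 0.17 without replicate 1.

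The sterol branch, the other arm of SREBP control, was split between survivors: of 9 genes, 0 were higher and 6 lower in erastin-R cells (median -0.50), 5 higher and 0 lower in RSL3-R cells (median 0.33), and all 9 higher in RSL3-R than in erastin-R cells (median 0.56). HMGCS1, an early enzyme of the mevalonate pathway, fell by 0.83 (adjusted p = 2.61e-07) and rose by 0.44 (adjusted p = 8.59e-05, edgeR). Without erastin-R replicate 1 the counts were 0 higher and 6 lower, 5 higher and 0 lower, and 8 higher and 0 lower. Mitochondrial fatty acid synthesis, a separate pathway that makes lipoic acid precursors, gave 3 higher and 1 lower of 9 in erastin-R (4 and 1 without erastin-R replicate 1) and 1 higher and 2 lower in RSL3-R cells.

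**Figure D5:**
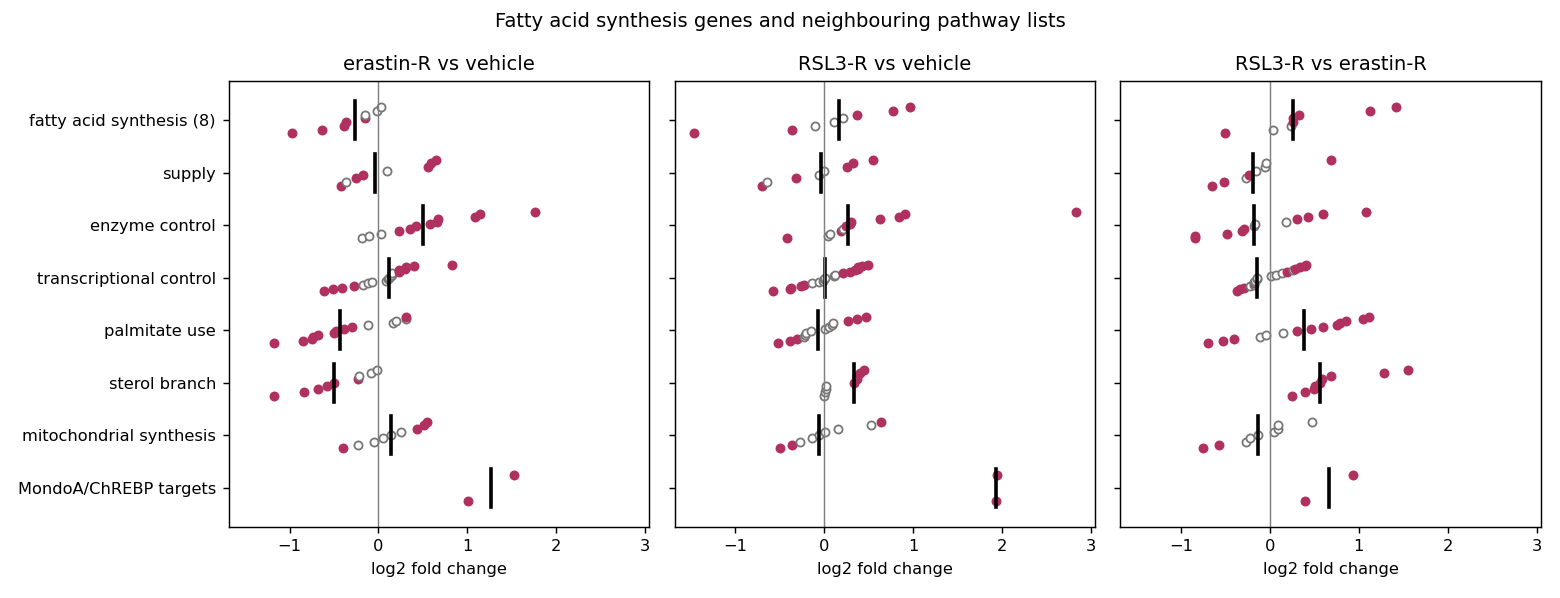
Log2 fold change of every tested gene of each list in the 3 comparisons, filled where adjusted p was under 0.05, with a black bar at the list's median. The sterol branch lies below 0 in erastin-R cells (median -0.50) and above 0 in RSL3-R cells (median 0.33), and the 8 fatty acid synthesis genes have medians of -0.26 and 0.16.

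Over the 9 libraries, the levels of FASN and SREBF1 had a Pearson correlation of 0.935 and those of ACSS2 and MLXIPL of 0.934 on the log2 CPM scale, the highest among the members, while FASN and ACACA had 0.342. The points share 3 groups of 3, so these values largely describe group differences and, for FASN and SREBF1, the low value of erastin-R replicate 1. Among 12969 protein-coding genes, the closest included PRXL2B (0.981) and OGDH (0.976) for SLC25A1, PHF23 (0.997) and GALNT10 (0.996) for ACLY, and ELF3 (0.998) and PRNP (0.993) for ACSS2. Among those close to the others were LUC7L3 (0.985) and HNMT (0.983) for ACACA, LIN9 (0.980) and CBR1 (0.979) for ACACB, USP6 (0.961) for FASN, CDC42EP1 (0.974) and SERTAD1 (0.970) for SREBF1, and IGF2R (0.995) and ITGA3 (0.994) for MLXIPL. As many as 651 genes exceeded a correlation of 0.9 with ACLY, against 14 with SREBF1.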

How the data were processed

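The 9 libraries of MDA-MB-231 RNA were assigned to vehicle, erastin-R and RSL3-R by the treatment in their labels, with replicate numbers from the titles. The authors deposited a raw count per gene and library, and the submitters' processing notes name HISAT2 2.0.5 and featureCounts 1.5.0-p3. They also deposited FPKM values, used here for 1 alternative filter (mean of at least 1) only. Of 58780 GENCODE 29 genes matched by identifier, 58769 had the same start and end.

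Counts were tested in edgeR 4.0.16 (R 4.3.3) after TMM scaling and filterByExpr, by the quasi-likelihood test, with a single model for the 3 groups and no covariate. Benjamini-Hochberg adjustment covered all 16188 genes tested. A gene passed the test at an adjusted p under 0.05, and was differentially expressed when its absolute log2 fold change was also at least 1, as in a figure legend of the study, whose methods give instead an unadjusted p from Cufflinks and a fold change above 2. CPM and RPKM used TMM library sizes and the exon lengths in the files. The common biological coefficient of variation was 8.56%. The procedure was tested on simulated data. RefSeq promoters were searched with Python and figures drawn with matplotlib 3.10.9.

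The members and the gene lists were chosen with earlier results of these data known. The text names the 8 members, listed genes called differentially expressed in any comparison, and SREBF2, SCAP, INSIG1, SCD, FADS2, MLX and MLXIP. For each member it also names the 2 protein-coding genes with the highest Pearson correlation of log2 CPM (prior count 3). Markers, overlapping genes, MIR33B, PKLR and the other AMPK subunits are named besides. Some genes that meet these rules are not reported here. Alternatives were DESeq2 1.42.0, total counts without TMM, quantile normalization with limma 3.58.1, no filter on low counts, the FPKM filter, only the 2 groups compared, a replicate block, an unadjusted p with a fold change above 2, and each library left out; list counts without erastin-R replicate 1 were added after seeing the data.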

Additional observations from a re-analysis of the deposited data

Results flagged for a closer look

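The responses to the 2 treatments differed, by the direct test of RSL3-R against erastin-R libraries (edgeR's quasi-likelihood test with Benjamini-Hochberg adjustment), for 6 of the 8 genes, 5 higher and 1 lower in RSL3-R cells, where 22.3% of all genes tested were higher and 26.9% lower. Without erastin-R replicate 1 they were 5 higher and 0 lower, where 27.1% and 30.0% of all genes were. MLXIPL differed by 1.42 on the log2 scale (adjusted p = 1.21e-07) and ACSS2 by 1.12 (adjusted p = 1.05e-08), both higher in RSL3-R cells. FASN differed by 0.33 (adjusted p = 0.0123; 0.19 and adjusted p = 3.29e-04 without erastin-R replicate 1), ACACA by 0.26 (adjusted p = 0.00325) and ACLY by 0.26 (adjusted p = 7.02e-04), all higher in RSL3-R cells. ACACB differed by -0.50 (adjusted p = 0.0462), lower in RSL3-R cells, with overlapping groups, and this call was lost in 9 of 15 alternative settings. The vehicle libraries enter these differences only through the shared low-count filter, TMM scaling, estimate of spread and adjustment over all genes tested.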

How the results depend on the processing

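Of 24 member results (8 genes in 3 comparisons), 14 kept direction and call in all 16 alternatives run (15 for ACACB, which the FPKM filter removed); 9 changed their call and 3 their sign. Of 45 results on named pathway genes, 35 kept both and 0 reversed. With the FPKM filter, which tests fewer genes, the differentially expressed genes numbered 1255 for erastin-R, 996 for RSL3-R and 871 between survivors. With only the 2 groups compared, 8 members passed in RSL3-R cells, where 58.5% of all genes did (48.7% with all groups), and leaving out each library gave 5 to 8, the 8 being without erastin-R replicate 1, where 56.6% of all genes passed. Leaving out each library, the FASN difference between erastin-R and vehicle ranged from -0.057 to 0.17, that of SREBF1 from -0.12 to 0.15 and that of SLC25A1 between survivors from -0.035 to 0.12; with total counts SREBF1 was at 0.013. The extremes at 0.17, 0.15 and -0.035 were without erastin-R replicate 1; the cause was not tested.

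Same-numbered libraries of different groups did not deviate together (mean correlation -0.0049 over 9 pairs, 0.0026 over 18 others). This gave no sign that the numbers pair them, but a small shared effect would not be seen this way. With the replicate number as a block, 4 members passed in erastin-R cells, 5 in RSL3-R cells and 5 between survivors; ACSS2 in erastin-R cells (-0.16, adjusted p = 0.0588) and ACACB between survivors (-0.50, adjusted p = 0.0691) lost their call. Scaling choices moved the median of all genes by less than 0.1 on the log2 scale. Depth limited ACACB most, at 54 to 207 counts a library.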
